A study of Homo sapiens with 18 samples.

Results

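Vehicle-treated HL60 cells were compared with vehicle-treated U937 cells by their RNA levels on Affymetrix human exon arrays. The comparison takes the 3 arrays of HL60 and the 3 arrays of U937 that received dimethyl sulfoxide (DMSO), 6 of the 18 arrays in the series. HL60 is a promyelocyte-like line from an acute myeloid leukaemia. U937 is a promonocyte-like line from a histiocytic lymphoma. Both were grown in RPMI medium with 10% fetal calf serum and received DMSO, diluted 1000 fold, for 3 days. The 12 other arrays hold the same lines with the phorbol ester PMA at 30 nM for 3 days, which activates protein kinase C, and the monocytic line THP-1 with DMSO or PMA. Each group is 3 numbered arrays of a single line grown in culture. The labels do not say whether these are separate cultures, so the spread between arrays may be technical. The spread behind each standard error and p-value is pooled over the groups of all 18 arrays. It is not that of the 6 compared arrays alone.

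Myeloid leukaemia lines are arrested at a step of maturation, and what they transcribe reflects that step. Promyelocytes make the primary (azurophil) granules, which hold myeloperoxidase and the neutrophil serine proteases. Monocyte precursors move on to surface receptors for lipopolysaccharide, chemokines and dying cells, and to lysosomal enzymes. The homeobox genes of the HOXA cluster, with their cofactor MEIS1, are active in early progenitors and stay active in many leukaemias.

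The granule enzyme gene MPO, the serpin gene SERPINB10 and the oxidase gene CYBB were among the genes furthest above U937 in HL60. The C-type lectin genes CLEC2B and CLECL1, the homeobox genes MEIS1 and HOXA11 and the cytidine deaminase gene APOBEC3B were among those furthest above HL60 in U937. A gene's value is the mean, in log2 units, of its exon-level probe sets. Differences are HL60 minus U937 in log2 units, with their standard error, and levels are means ± SD of 3 arrays. Of 16260 genes, limma called 3829 (23.5%) at an adjusted p under 0.05. Higher in HL60 were 1702 (10.5%), of which 621 differed at least 2-fold and 181 at least 4-fold. Higher in U937 were 2127 (13.1%), of which 916 differed at least 2-fold and 212 at least 4-fold. The groups of 3 arrays did not overlap for 6366 genes (39.2%), with 20.1% higher in HL60 and 19% higher in U937. The median difference over all genes was 0.04, and the median size of a difference, whatever its sign, was 0.26.

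**Figure D1:**
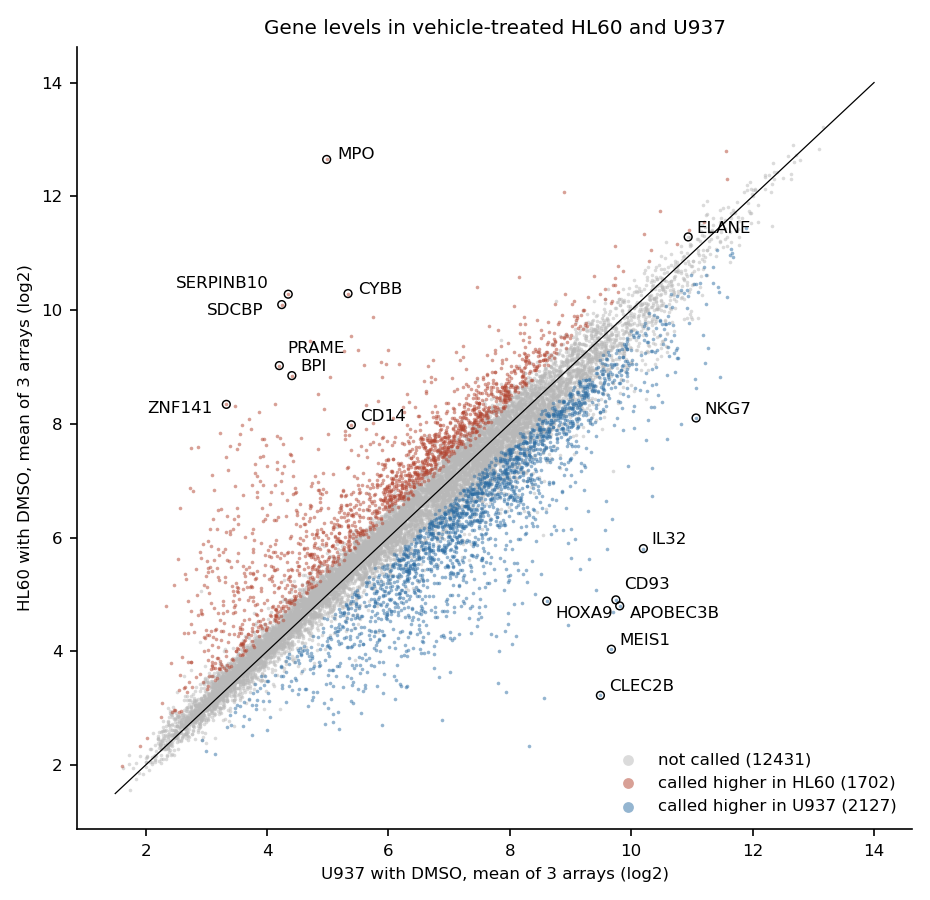
Each point is 1 of the 16260 genes, at its mean log2 level in U937 (x axis) and in HL60 (y axis) with DMSO, 3 arrays each. Red points were called higher in HL60 (1702) and blue points higher in U937 (2127), and the line marks equal levels. MPO stands at 12.65 in HL60 and 4.98 in U937, MEIS1 at 4.04 and 9.67, while ELANE lies near the line.

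The direction of small differences depended on how the arrays were scaled. The deposited arrays had medians from 6.43 to 6.56 in HL60 and from 6.72 to 6.95 in U937, and quantile normalization of all 18 arrays gave them a common median. On the values as deposited, limma called 628 genes higher in HL60 and 3091 higher in U937, so that 83.1% of the called genes were higher in U937, against 55.5% after normalization. The median over all genes was then -0.23. No gene called in both settings changed direction. U937 array 2 stood apart in tied values: it shared at most 5 with any other array, while the HL60 arrays shared 87 to 103 with each other and U937 arrays 1 and 3 shared 82. Its gene values did not stand apart, with a correlation of 0.995 with U937 array 1 and 0.976 with U937 array 3. Without U937 array 2, limma called 1280 genes higher in HL60 and 1685 higher in U937. The U937 array numbered 2 with PMA held 83228 distinct values, against 214471 to 220516 on the other arrays. Its deposited median was 6.18. That array entered the normalization and every result with PMA. Levels below 5.17, the 30th percentile of all probe sets, are called low here, and folds against them are approximate.

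Both lines carried transcripts of promyelocyte markers, and monocyte markers ranged from high to low in U937. Of the promyelocyte markers, ELANE stood at 11.29 ± 0.16 in HL60 and 10.94 ± 0.40 in U937, AZU1 at 8.83 ± 0.19 and 8.75 ± 0.21, and PRTN3 at 11.13 ± 0.53 and 9.73 ± 0.61. CTSG went the other way, at 8.91 ± 0.90 in HL60 and 10.73 ± 0.47 in U937. MPO alone of these was low in U937. Of the monocyte markers, LYZ was at 11.56 ± 0.97 and CD4 at 7.70 ± 0.12 in U937. FCGR1A (5.44 ± 0.48), CSF1R (5.38 ± 0.06) and ITGAX (5.45 ± 0.22) lay just above the low level there, and CD86 (4.03 ± 0.22) lay below it. None of these monocyte markers had a higher mean in U937 than in HL60. Of 20 T and NK cell markers 12 were low in both lines, and among the 20 only NKG7, also a granule protein, was called.

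The largest difference of all was that of MPO on chromosome 17, the peroxidase that makes hypochlorous acid in primary granules. MPO read 12.51, 12.78 and 12.66 on the HL60 arrays and 4.93, 4.97 and 5.05 on the U937 arrays. All 3 HL60 arrays were far above all 3 U937 arrays, and all 19 probe sets of the gene were higher in HL60. The difference was 7.66 ± 0.17 (adjusted p = 1.26e-13), a 203-fold higher mean. THP-1 with DMSO was at 5.89 ± 0.13, near U937.

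SERPINB10, a protease inhibitor of haematopoietic cells, read 10.34, 10.27 and 10.22 in HL60 and 4.29, 4.45 and 4.31 in U937. The line difference was 5.93 ± 0.19 (adjusted p = 7.67e-12). SDCBP, which encodes the scaffold protein syntenin, read 10.47, 9.96 and 9.85 against 4.26, 4.20 and 4.27. Neither gene's arrays overlapped between the lines. THP-1 was on the HL60 side for SDCBP (10.63 ± 0.39) and nearer U937 for SERPINB10 (6.29 ± 0.32).

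The other genes of the 15 largest differences toward HL60 were low in U937, apart from CYBB at 5.33. They included the peptidase BLMH (4.84 ± 0.24), the folate hydrolase GGH (4.83 ± 0.58), the RNA- and DNA-binding protein YBX3 (4.74 ± 0.25) and the oxidation resistance gene OXR1 (4.73 ± 0.24). The polarity scaffold LIN7A (4.60 ± 0.20), the nucleosome-binding HMGN3 (4.38 ± 0.53), the cytochrome CYP1B1 (4.37 ± 0.22) and the fibrinogen-like FGL2 (4.35 ± 0.27) followed. All were called, the least significant being BPI (adjusted p = 1.27e-05). THP-1 was at 8.09 ± 0.40 for BLMH, against 8.31 ± 0.33 in HL60, and was nearer to HL60 for each of the genes named here except CYBB (5.76), BPI (3.98) and FGL2 (4.37), for which it was nearer to U937.

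Toward U937 the largest difference was that of CLEC2B, a C-type lectin ligand of an NK cell receptor. It read 3.49, 2.86 and 3.33 on the HL60 arrays and 9.92, 9.60 and 8.95 on the U937 arrays. The groups were wide apart, with a difference of -6.27 ± 0.55 (adjusted p = 3.58e-07). Its chromosome 12 neighbours CLECL1 (-5.99 ± 0.24), CLEC2A (-5.38 ± 0.26) and the activation marker CD69 (-4.65 ± 0.39) were higher in U937 as well. All 4 were low in HL60, and in THP-1 they were at most 3.06.

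The other large differences toward U937 were spread over several functions. GPNMB, a glycoprotein of macrophages and melanocytes, differed by -5.01 ± 0.25, the C1q-associated receptor CD93 by -4.84 ± 0.19 and the fatty acid desaturase FADS2 by -4.48 ± 0.27. The cytokine IL32 differed by -4.39 ± 0.24, the vesicle transport GTPase RAB27B by -4.36 ± 0.17 and the zinc transporter TMEM163 by -4.35 ± 0.21. The fibroblast activation protein FAP (-4.08 ± 0.35) read 2.69, 2.83 and 2.88 in HL60 and 7.54, 7.27 and 5.83 in U937. U937 array 3 was the lowest of the U937 arrays for FAP, GPNMB, IL32, CD69 and CD36, but lay above every HL60 array for each.

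**Figure D2:**
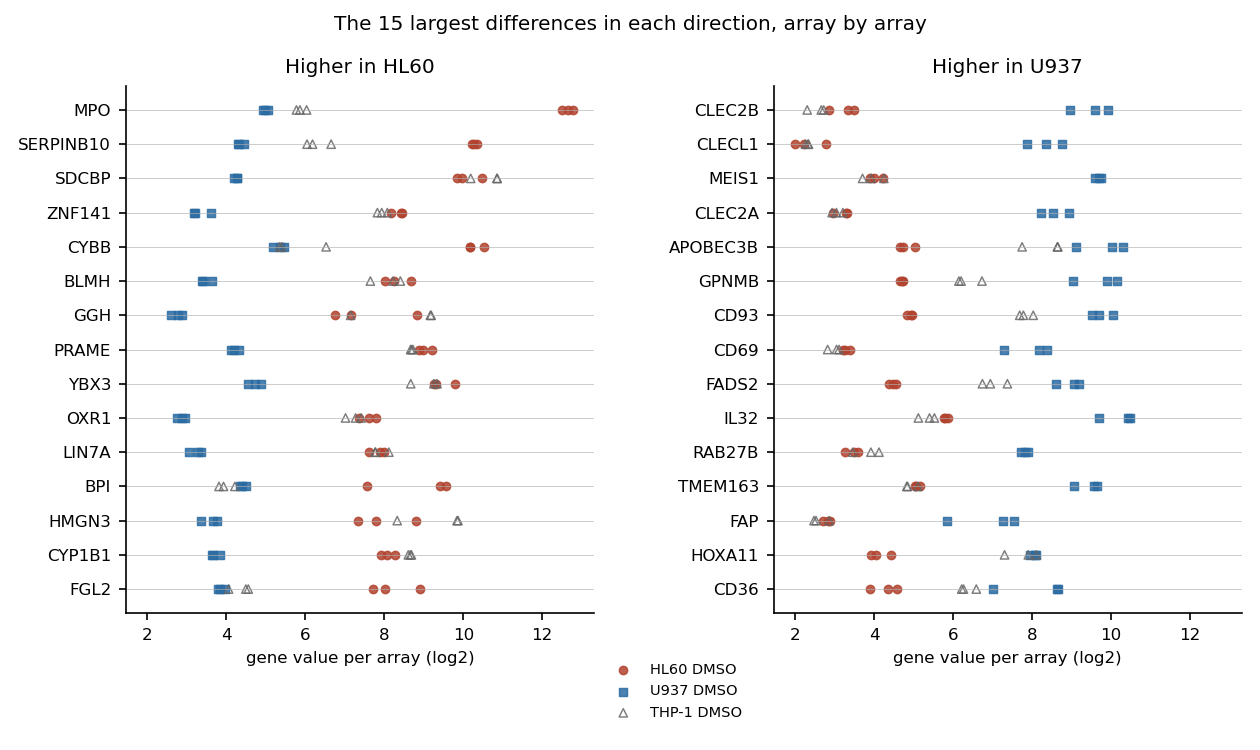
Values of the 15 genes with the largest difference in each direction, on each DMSO array (log2, x axis), with HL60 as red circles, U937 as blue squares and THP-1 as open triangles. The HL60 and U937 symbols do not overlap for any of these genes. BPI, HMGN3 and GGH spread most among the HL60 arrays, and FAP and CD36 among the U937 arrays.

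Granule genes did not follow 1 direction. Of 15 genes measured in the list of primary granule proteins, 7 were called higher in HL60, 3 higher in U937 and 5 were not called. The share called was 66.7%, against 23.5% of all genes. Their median difference was 0.66, against 0.04 for all genes. The list also counts the serpin gene SERPINB10 and the cytotoxic granule gene NKG7, which were called in opposite directions. BPI, which binds bacterial lipopolysaccharide, read 9.56, 9.42 and 7.56 in HL60 and 4.35, 4.39 and 4.49 in U937. HL60 array 3 was the lowest of its group and still above all U937 arrays, and the difference was 4.44 ± 0.54. NKG7, a protein of cytotoxic granules, went the other way and read 7.79, 8.20 and 8.31 in HL60 against 10.94, 11.13 and 11.13 in U937. Its difference was -2.97 ± 0.21 (adjusted p = 2.57e-08). The serine protease CTSG was at 8.91 ± 0.90 in HL60 and 10.73 ± 0.47 in U937, called higher in U937 (-1.82 ± 0.50, adjusted p = 0.0143). That call was lost without HL60 array 2 (adjusted p = 0.064), HL60 array 3 (0.0734), U937 array 1 (0.0549) or U937 array 2 (0.0611). The elastase ELANE (0.35 ± 0.25, adjusted p = 0.372) was not called.

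Of 19 secondary and tertiary granule genes, 6 were called higher in HL60 and 1 higher in U937 (2 without HL60 array 1), with a median of 0.48. This was 36.8% of the list, against 23.5% of all genes. Without HL60 array 3, 10 were called higher in HL60. CEACAM8, a surface and granule protein of granulocytes, read 7.58, 7.61 and 5.51 against 4.70, 4.82 and 4.65. PADI4, which citrullinates histones in neutrophils, differed by 2.02 ± 0.12 (adjusted p = 3.46e-09). CYBB, the catalytic chain of the phagocyte NADPH oxidase, read 10.16, 10.17 and 10.53 in HL60 and 5.36, 5.46 and 5.18 in U937. The groups were far apart (4.95 ± 0.27, adjusted p = 1.44e-09). The proton channel HVCN1, which balances the charge moved by the oxidase, was higher in HL60 too (1.61 ± 0.18).

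Genes of eosinophils, basophils and mast cells were higher in HL60 or not called. Of 14 measured, 7 were called higher in HL60 and 0 higher in U937, with a median of 0.61, and 7 were low in both lines. This was 50% of the list, against 23.5% of all genes called in either direction and 10.5% called higher in HL60. The eosinophil peroxidase EPX, a neighbour of MPO, read 9.83, 10.25 and 7.77 in HL60 and 5.17, 5.24 and 5.38 in U937. The Charcot-Leyden crystal protein CLC read 9.15, 7.53 and 4.89 against 3.14, 3.38 and 3.54. HL60 arrays differed widely here, array 3 being the lowest, but no U937 array reached them. The eosinophil major basic protein PRG2 (2.03 ± 0.19) and the mast cell carboxypeptidase CPA3 (2.05 ± 0.38) were called higher in HL60. The zinc finger factor GATA2 of early progenitors, basophils and mast cells was higher in HL60 as well (1.39 ± 0.16, adjusted p = 7.09e-06).

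HL60 array 3 differed from HL60 arrays 1 and 2 in several lineage genes. It was lowest for BPI, CEACAM8, EPX, CLC and CPA3 and for the stem cell factor receptor KIT (7.34, 7.49 and 4.74). It was highest for the chemokine receptor CCR2 (7.70, 7.11 and 8.65), for CD74 (8.21, 8.33 and 9.68) and for the monocytic factor IRF8 (8.41, 8.73 and 10.53). IRF8 was not called between the lines (-0.25 ± 0.43, adjusted p = 0.73), and its U937 arrays lay inside the HL60 range. The pooled standard error does not follow this spread: for CPA3 it was 0.38, with an SD of 1.24 in HL60 and 0.10 in U937. Without HL60 array 3, BPI, CEACAM8, EPX, CLC, CPA3, KIT, CCR2 and CD74 kept their calls between the lines. The secondary and tertiary granule genes called higher in HL60 then rose from 6 to 10. Over all genes, HL60 array 3 correlated at 0.987 with HL60 array 2 and at 0.963 with HL60 array 1. HL60 arrays 1 and 2 correlated at 0.980. What set array 3 apart in the lineage genes named here was not tested.

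Surface receptors set the lines apart in both directions. Of 28 monocyte and macrophage surface markers, 11 were called higher in HL60 and 4 higher in U937, with a median of 0.21, which was -0.09 on the values as deposited and 0.40 without U937 array 3. CD14, the lipopolysaccharide co-receptor, read 8.14, 7.51 and 8.30 in HL60 and 5.33, 5.07 and 5.76 in U937, without overlap. The difference was 2.59 ± 0.24 (adjusted p = 5.45e-07). CCR2, the receptor for the monocyte chemoattractant CCL2, was 2.81 ± 0.36 higher in HL60, and CD4 was 1.22 ± 0.17 higher. CD36, a scavenger receptor for oxidized lipoproteins, read 4.59, 3.89 and 4.35 in HL60 and 8.66, 8.63 and 7.02 in U937. MERTK, a receptor for dying cells, was at 5.01 ± 0.05 and 8.42 ± 0.09. Both were higher in U937 (-3.83 ± 0.44 and -3.41 ± 0.18). The colony-stimulating factor receptor CSF1R was called higher in HL60 (0.74 ± 0.21, adjusted p = 0.0174), but not as deposited (0.46, adjusted p = 0.205) or without HL60 array 3 (0.52, adjusted p = 0.102).

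Of 22 granulocyte and progenitor surface markers, 7 were called higher in HL60 and 3 higher in U937. Their median was 0.18, and -0.11 as deposited. FLT3, a growth factor receptor of progenitors, read 7.98, 7.78 and 7.62 in HL60 and 4.25, 4.12 and 4.12 in U937, a difference of 3.63 ± 0.14 (adjusted p = 5.48e-11). KIT was 3.03 ± 0.51 higher in HL60. Both receptor genes were low in U937, and THP-1 was at 7.85 ± 0.32 for FLT3, level with HL60. The pan-myeloid marker CD33 was at 8.65 ± 0.18 and 8.47 ± 0.31 (difference 0.18, adjusted p = 0.569). The stem cell marker CD34 was low in both lines.

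Among 32 integrin and adhesion genes, the junctional adhesion protein JAML (2.99 ± 0.21) and the integrin chain ITGB7 (1.91 ± 0.19) were higher in HL60. The laminin receptor chain ITGA6 (-2.39 ± 0.43) and CD99 (-1.97 ± 0.19), which serves the passage of leukocytes through endothelium, were higher in U937. In all 7 were called higher in HL60 and 6 in U937. The count for HL60 was 4 without HL60 array 2 or U937 array 2 and 3 without U937 array 1. The complement receptor chain ITGAM (6.35 ± 0.22 and 5.22 ± 0.07) was called (adjusted p = 0.0289), and lost the call when any 1 of the arrays other than HL60 array 1 was left out (adjusted p from 0.0524 without U937 array 3 to 0.104 without HL60 array 3).

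Homeobox genes stood out toward U937. Of 29 HOX genes and cofactors measured, 14 were called higher in U937 and 1 higher in HL60, with a median of -0.39, or -0.25 without U937 array 3. MEIS1, the DNA-binding partner of HOX proteins, stood at 4.04 ± 0.17 in HL60, between 3.89 and 4.22, and read 9.74, 9.60 and 9.69 in U937, at 9.67 ± 0.07. The groups were far apart, with a difference of -5.64 ± 0.14 (adjusted p = 2.74e-13), and THP-1 was as low as HL60 (3.96 ± 0.27). HOXA9 read 4.89, 4.77 and 4.99 in HL60 and 8.92, 8.82 and 8.08 in U937 (-3.73 ± 0.29). HOXA11 was at 4.14 ± 0.26 and 8.04 ± 0.08 (-3.91 ± 0.23), HOXA10 at 6.52 ± 0.29 and 8.22 ± 0.13, and HOXA13 at 6.65 ± 0.34 and 8.09 ± 0.21. For HOXA9, HOXA11 and HOXA13, THP-1 (8.30 ± 0.56, 7.77 ± 0.42 and 7.86 ± 0.13) was on the U937 side. With HOXA7, these were 5 neighbouring measured genes of chromosome 7, all called. HOXA7 had the smallest difference (-0.56, adjusted p = 0.036) and was not called without HL60 array 1 (adjusted p = 0.153), U937 array 2 (0.156) or U937 array 3 (0.0831), nor with the median of its probe sets (-0.20, adjusted p = 0.662).

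On chromosome 10 another 5 neighbouring genes were all called higher in U937. The Polycomb gene BMI1, which keeps stem cells self-renewing, read 7.13, 6.84 and 6.23 in HL60 and 10.27, 10.31 and 10.46 in U937 (-3.61 ± 0.27, adjusted p = 6.22e-08). COMMD3 (-3.05 ± 0.67), SPAG6 (-2.01 ± 0.13), DNAJC1 (-1.31 ± 0.21) and PIP4K2A (-0.75 ± 0.19) were its neighbours. U937 is known for a fusion that involves MLLT10, which lies in the same part of the chromosome. MLLT10 read 7.12, 6.99 and 6.74 in HL60 and 5.86, 5.76 and 6.04 in U937, higher in HL60 by 1.06 ± 0.22 (adjusted p = 0.00213), with 35 of its 38 probe sets on that side. As deposited, its difference was 0.78 (adjusted p = 0.0545). The fusion was not measured here, and its relation to the levels of these genes was not tested.

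Of 44 myeloid transcription factors, 5 were called higher in HL60 and 8 higher in U937, 29.5% in all, near the 23.5% of all genes. Without HL60 array 2 the counts were 3 and 4, without HL60 array 3 they were 3 and 7, without U937 array 1 they were 3 and 4, and without U937 array 2 they were 3 and 3. SPI1, the master regulator PU.1 of myeloid cells, read 8.82, 9.42 and 9.50 against 8.13, 8.17 and 8.42 (1.01 ± 0.19, adjusted p = 0.000821). CEBPD was 1.27 ± 0.16 higher in HL60 and KLF6 was 1.08 higher in U937 (-1.08 ± 0.20). CEBPA (0.55, adjusted p = 0.106), CEBPE (0.73, adjusted p = 0.438) and GFI1 (0.15, adjusted p = 0.703) were not called.

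Of 39 interferon-stimulated genes measured, 11 were called higher in U937 and 4 higher in HL60 (2 without U937 array 2 or 3), with a median of -0.18, and 16 were low in both lines. The share called was 38.5%, against 23.5% of all genes. The median was -0.079 without HL60 array 2, -0.11 without U937 array 1 and -0.33 without U937 array 3, and 0.08 with only probe sets above the 30th percentile. The antiviral GTPase MX2 read 5.52, 5.46 and 5.90 in HL60 and 9.45, 9.12 and 9.36 in U937 (-3.68 ± 0.16, adjusted p = 1.1e-10). The DNA sensor IFI16 (-2.65 ± 0.39) and the virus tether BST2 (-2.50 ± 0.47) were higher in U937. SAMHD1, which breaks down deoxynucleotides, went the other way and read 9.13, 9.25 and 10.26 in HL60 against 5.37, 5.61 and 5.20 in U937 (4.16 ± 0.31). Of the antiviral APOBEC3 deaminases, 5 neighbouring genes on chromosome 22 were all called higher in U937. APOBEC3B read 4.73, 4.64 and 5.02 in HL60 and 10.30, 10.01 and 9.12 in U937 (-5.01 ± 0.32). APOBEC3F (-2.33 ± 0.20), APOBEC3D (-2.01 ± 0.20), APOBEC3C (-1.28 ± 0.21) and APOBEC3A (-1.13 ± 0.20) differed less. Probe sequences were not used here, so signal shared between such related genes was not tested.

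Of 33 cytokine and chemokine genes, 7 were called higher in U937 and 0 higher in HL60 (1 without HL60 array 1 or U937 array 1), so that 21.2% were called, against 23.5% of all genes. The chemoattractant CCL2 read 6.23, 5.34 and 5.37 in HL60 and 9.29, 9.65 and 8.08 in U937 (-3.36 ± 0.51). CCL5 (-1.86 ± 0.37) and the angiogenic factor VEGFA (-1.27 ± 0.20) were higher in U937 with IL32. For CCL2, the ligand was higher in U937 and its receptor CCR2 higher in HL60. Of 40 cytokine and chemokine receptors, 12 were called higher in HL60 and 8 higher in U937, with a median of 0.23, or -0.10 as deposited and 0.013 without HL60 array 3. The share of receptors called was 50%, against 23.5% of all genes. The common gamma chain IL2RG (-2.11 ± 0.39), IL18R1 (-1.89 ± 0.20) and the transforming growth factor beta receptor TGFBR1 (-1.43 ± 0.20) were those furthest toward U937.

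Lysosomal genes were mostly higher in U937 or not called. Of 29 measured, 13 were called higher in U937 and 3 higher in HL60 (1 without HL60 array 3), with a median of -0.82. The cathepsin CTSH read 6.25, 6.05 and 6.11 in HL60 and 8.96, 8.98 and 8.70 in U937 (-2.74 ± 0.19, adjusted p = 2.04e-08). CTSD, the aspartic protease of lysosomes, was at 9.56 ± 0.24 and 11.18 ± 0.01 (-1.62 ± 0.18). The beta-galactosidase GLB1 (-1.35 ± 0.14) and the sterol carrier NPC2 (-1.57 ± 0.38) were also higher in U937.

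Glycolysis genes leaned the same way, with 11 of 25 called higher in U937 and 2 higher in HL60 (median -0.51). PDK1, a kinase that inhibits the pyruvate dehydrogenase complex in mitochondria, read 8.03, 8.34 and 7.61 in HL60 and 10.70, 10.50 and 11.24 in U937 (-2.82 ± 0.24). Hexokinase HK1 was higher in U937 (-1.54 ± 0.23). The gluconeogenic FBP1 (1.65 ± 0.28) and the muscle-type phosphofructokinase PFKM (1.51 ± 0.22) were higher in HL60, both being low in U937. Oxidative phosphorylation had a median of -0.50, which lay between -0.26 (without HL60 array 3) and -0.78 (without U937 array 3) when 1 array was left out. It had 1 of 23 genes called (4.35%, against 23.5% of all genes), and 0 without U937 array 1 or 2. Its genes spread widely among arrays of a line, for example COX6C at 8.95 ± 1.46 in HL60 and 10.16 ± 1.28 in U937. Of 18 cholesterol synthesis genes, 4 were called higher in U937, among them INSIG1 (-0.97 ± 0.21) and NSDHL (-1.09 ± 0.25), and 1 higher in HL60, 27.8% in all against 23.5% of all genes. The count for HL60 was 0 without HL60 array 2 or 3 or U937 array 1 or 2. The count for U937 was 7 without HL60 array 1 and 8 without U937 array 3.

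Of 29 genes of mitosis, 13 were called higher in U937 and 1 higher in HL60 (0 without HL60 array 1 or U937 array 2), with a median of -0.71. The count for U937 was 7 without HL60 array 2 or U937 array 1 and 8 without HL60 array 3 or U937 array 2, and 8 with the median of a gene's probe sets. The kinesin KIF20A of cytokinesis read 6.57, 6.72 and 6.68 in HL60 and 8.82, 8.83 and 8.64 in U937 (-2.11 ± 0.27, adjusted p = 2.07e-05). Cyclin B1 (CCNB1, -1.69 ± 0.23) and the spindle factor TPX2 (-1.38 ± 0.25) were also higher in U937. Of 23 cyclins and cell cycle inhibitors, 8 were called higher in U937 (4 without HL60 array 2, 5 without U937 array 1 or 2) and 4 higher in HL60 (2 without U937 array 2). This was 52.2% of the list, against 23.5% of all genes. The germline and leukaemia cyclin CCNA1 (5.80 ± 0.49 and 9.60 ± 1.02) and the G1 cyclin CCND3 (-1.35 ± 0.25) were among those higher in U937. Of 32 DNA replication genes, 8 were called higher in U937 and 0 higher in HL60, 25% in all, near the 23.5% of all genes. The count for U937 was 5 without HL60 array 2 or U937 array 1 and 4 without HL60 array 3 or U937 array 2.

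The survival gene BCL2 and its relatives were not uniform. BCL2 read 8.76, 8.26 and 8.37 in HL60 and 7.37, 7.32 and 7.15 in U937 (1.19 ± 0.16, adjusted p = 4.47e-05). The apoptosome component APAF1 was higher in HL60 (1.07 ± 0.22), as was the death receptor TNFRSF10A (1.64 ± 0.16). The survival factors BCL2L1 (-1.09 ± 0.19) and BCL2A1 (-2.70 ± 0.67) were higher in U937. Of the 30 apoptosis regulators, 6 were called higher in HL60 and 2 in U937, 26.7% against 23.5% of all genes, with a median of 0.19, or -0.13 as deposited.

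Of 14 MHC class II genes, 4 were called higher in HL60 (2 without HL60 array 3 and 1 without U937 array 2) and 2 higher in U937. The invariant chain CD74 was 2.04 ± 0.34 higher in HL60, while HLA-DOB (-1.79 ± 0.23) and the lysosomal thiol reductase IFI30 (-1.54 ± 0.27) were higher in U937. In class I presentation, the peptide-trimming ERAP2 was at 7.08 ± 0.21 in HL60 and 4.79 ± 0.17 in U937, without overlap (2.29 ± 0.21).

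Germline antigens were low in both lines for 23 of 29 genes, and 5 were called higher in HL60, with 0 in U937 (3 in HL60 without HL60 array 3). The share called was 17.2%, against 23.5% of all genes in either direction and 10.5% higher in HL60. PRAME, an antigen of leukaemias and melanoma, read 9.20, 8.98 and 8.89 in HL60 and 4.11, 4.31 and 4.19 in U937 (4.82 ± 0.14, adjusted p = 2.59e-12). TEX15 (2.36 ± 0.27) and MAGEB2 (1.79 ± 0.33) were higher in HL60 too. Among DNA and histone modifiers, the methylcytosine oxidase TET2 read 7.67, 8.06 and 7.89 against 5.15, 5.06 and 5.67 (2.58 ± 0.18, adjusted p = 2.15e-08). HDAC9 was 1.52 ± 0.23 higher in HL60 and IDH1 was higher in U937 (-1.32 ± 0.17). Of 10 B cell markers, PAX5 (5.31 ± 0.12 and 6.42 ± 0.27) and EBF1 (4.65 ± 0.20 and 5.97 ± 0.07) were called, both higher in U937. This was 20% of the list, against 23.5% of all genes.

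On the values as deposited the counts toward HL60 were 6 for secondary and tertiary granule proteins and 2 for glycolysis, as after normalization. They were smaller for other lists, with 4 in place of 12 for cytokine and chemokine receptors and 3 in place of 7 for integrins and adhesion. They were 2 in place of 6 for apoptosis regulators and 1 in place of 4 for both interferon-stimulated and MHC class II genes. After normalization, the shares called in either direction were 40.6% for integrins and adhesion and 42.9% for MHC class II, against 23.5% of all genes. They were 45.5% for granulocyte and progenitor and 53.6% for monocyte and macrophage surface markers. HOX genes had 51.7%, lysosome 55.2%, glycolysis 52% and mitosis 48.3%.

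**Figure D3:**
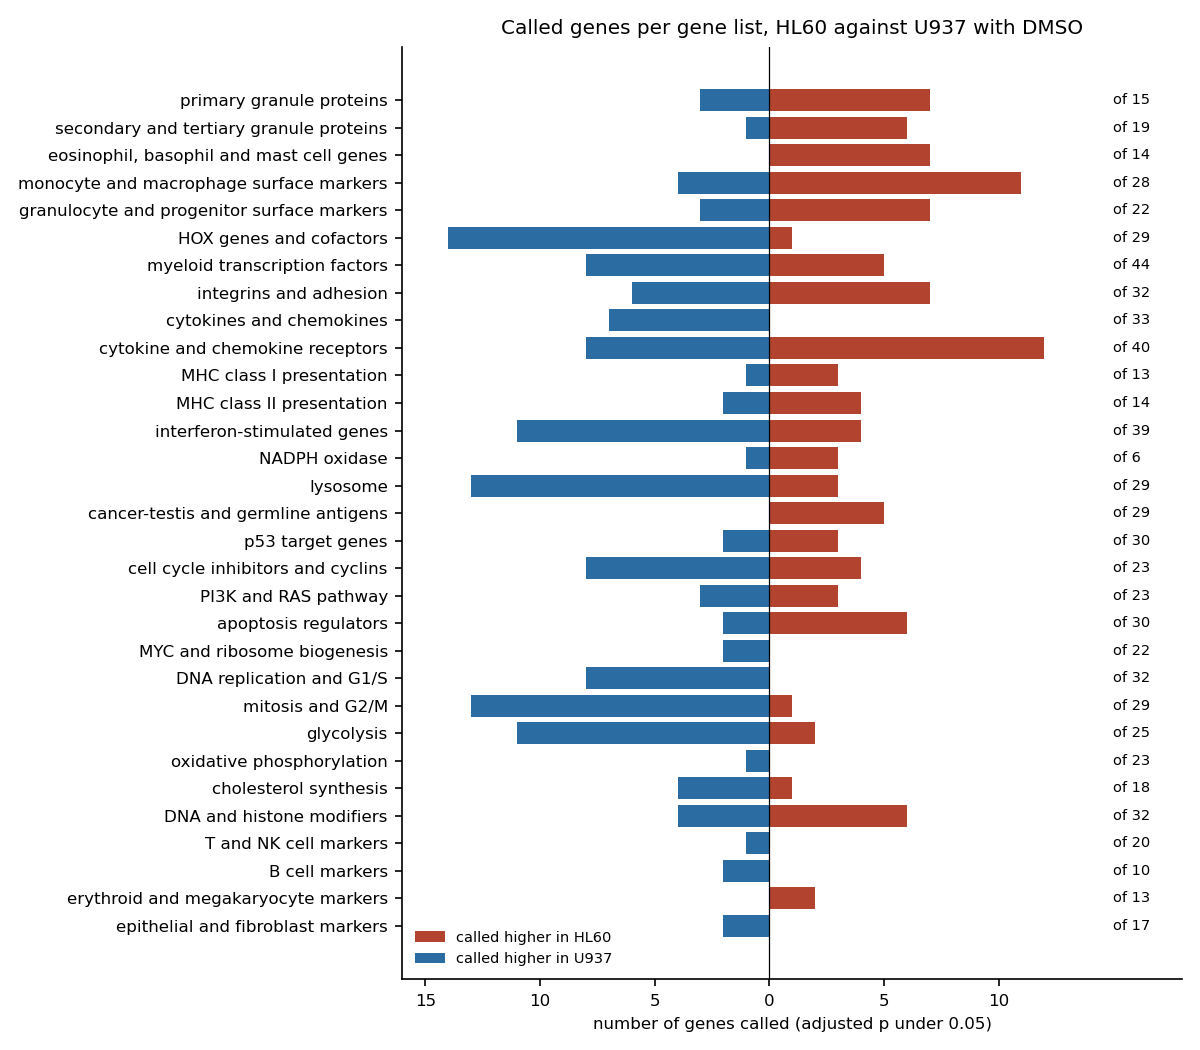
Number of genes called in each of 31 lists, with bars to the right for genes higher in HL60 and to the left for genes higher in U937, and the number measured at the right edge. HOX genes (14 against 1), lysosome (13 against 3), mitosis (13 against 1), glycolysis (11 against 2) and interferon-stimulated genes (11 against 4) reach furthest to the left, and eosinophil, basophil and mast cell genes have 7 on the right and 0 on the left.

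Several of the genes above are neighbours on a chromosome, and runs of such neighbours were counted. Runs of at least 5 neighbouring measured genes, in RefSeq order, all called in 1 direction, numbered 14 toward HL60 with 92 genes and 13 toward U937 with 70 genes. Toward U937 these held the HOXA, BMI1, CLEC2B and APOBEC3 runs above and the metallothionein genes MT1L, MT1E, MT1M, MT1A and MT1DP of chromosome 16. Among these, MT1M (-0.46) was not called without HL60 array 1 (adjusted p = 0.0524), HL60 array 2 (0.0758) or U937 array 2 (0.132). KLRF1, also in the CLEC2B run, was not called without HL60 array 1 (0.0772), U937 array 1 (0.105) or U937 array 2 (0.0686). Toward HL60 they held EPX, MKS1, LPO, MPO and TSPOAP1 of chromosome 17, in which LPO (0.68, adjusted p = 0.0134) was not called without HL60 array 3 (adjusted p = 0.0533) or U937 array 1 (0.0847), and neither LPO (0.209) nor MKS1 (0.166) was called as deposited.

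Of the chromosomes, 18 had the highest share of its genes called higher in HL60, at 67 of 234 (28.6%), against 10.5% of all genes, and 20 were higher in U937. HL60 is known for additional copies of chromosome 18. On the values as deposited, 29 of its genes were called higher in HL60 and 22 higher in U937. Its 2 runs held BCL2 with PHLPP1 (1.18 ± 0.22), a phosphatase of the kinase AKT, and ZNF516 (1.06 ± 0.22) with PTGR3 (0.82 ± 0.11, and 0.50 with adjusted p = 0.0807 as deposited). Chromosome 15 had the highest share called higher in U937, at 112 of 477 (23.5%), against 13.1% of all genes, and 31 were higher in HL60. As deposited, its counts were 157 and 13. DNA copy number was not measured in the files used here.

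Of the 14 runs toward HL60, 7 were made of zinc finger genes of chromosome 19, which encode DNA-binding repressors in large clusters of related copies. This set was chosen after the runs had been seen and is given as a description. Signal shared between probes of related copies was not tested, so these genes may not count as separate results. The same limit holds for the metallothionein run. Of 198 genes named ZNF or ZFP on chromosome 19, 114 (57.6%) were called higher in HL60, 4 (2.02%, and 1 to 4 when 1 array was left out) higher in U937 and 80 were not called, with a median difference of 0.72. The other 923 genes of the chromosome had 41 called higher in HL60 and 142 higher in U937, with a median of -0.04. The 237 ZNF and ZFP genes of other chromosomes had 56 and 17. On the values as deposited, 76 and 7 were called on chromosome 19, with a median of 0.43.

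Many of the called zinc finger genes had low levels in U937. Of the 114, the median level was 6.19 in HL60 and 4.58 in U937, and 78 were low in U937 against 16 in HL60. They were selected as higher in HL60, so lower levels in U937 follow in part from the selection. Of all 1702 genes called higher in HL60, 587 were low in U937. THP-1 was nearer to HL60 for 89 of the 114, and for 917 (53.9%) of the 1702. Every probe set was higher in HL60 for 80 of the 114, and for 865 of the 1702. The longest run, of 14 genes, went from ZNF790 to ZFP30, with differences from 0.61 to 3.05. Within it ZNF383 (adjusted p = 0.0999) and ZNF569 (0.0967) were not called without HL60 array 1 and not without U937 array 3 (0.072 and 0.0679). ZNF383 was also not called without U937 array 2 (0.057) and ZNF569 not without HL60 array 2 (0.0864). The next, of 12 genes, went from ZNF221 to ZNF235, with a median of 1.02. Within this run ZNF222, ZNF226 and ZNF227 were not called without HL60 array 1 (adjusted p = 0.121, 0.158 and 0.196) or U937 array 2 (0.0557, 0.0651 and 0.0687) or 3 (0.0616, 0.207 and 0.13). ZNF226 (0.0835) and ZNF227 (0.092) were not called without HL60 array 2, ZNF226 not without HL60 array 3 (0.0621), and ZNF222 (0.064) and ZNF227 (0.0867) not without U937 array 1. ZNF221 was not called without HL60 array 2 (adjusted p = 0.0516), without U937 array 2 (0.0536) or as deposited (0.118), where ZNF235 was not called either (0.171). With PMA, on other arrays, 124 of the 198 genes were called higher in HL60, 104 of them among the 114.

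**Figure D4:**
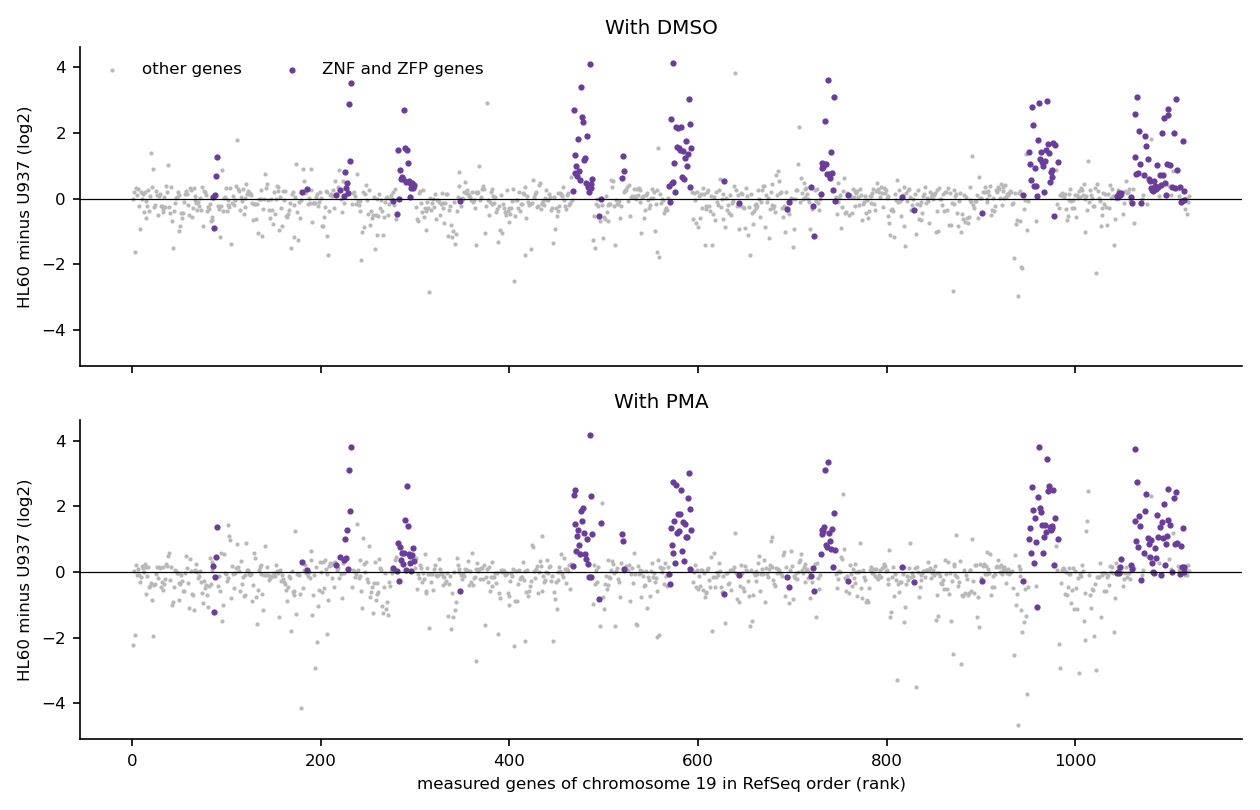
Line difference (HL60 minus U937, log2, y axis) of the genes of chromosome 19 in RefSeq order (x axis, rank), with DMSO above and with PMA below, the 198 ZNF and ZFP genes in purple and the other 923 in grey. The purple points rise in separate groups, where they reach about 4 log2 units with DMSO, and most of the grey points lie near 0.

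The upstream sequences of 4 called zinc finger genes are shown because they hold short motifs that recur in this gene family. ZNF141, with the fourth largest difference toward HL60 of all genes, read 8.44, 8.41 and 8.18 in HL60 and 3.61, 3.17 and 3.21 in U937 (5.01 ± 0.17). ZNF493 (2.48 ± 0.17), ZNF85 (1.81 ± 0.16) and ZNF43 (1.26 ± 0.22) form part of a run of 8 on chromosome 19, ZNF43 being low in both lines. ZNF431 of this run was not called without HL60 array 1 (adjusted p = 0.157), HL60 array 2 (0.143) or any 1 U937 array (0.0667, 0.121 and 0.0906). The 250 bases before each start, from RefSeq on build GRCh38.p14 and written 5′ to 3′ in the direction of the gene, lie at chr4:337564-337813 (plus strand) for ZNF141, chr19:21396883-21397132 (plus) for ZNF493, chr19:20923001-20923250 (plus) for ZNF85 and chr19:21836183-21836432 (minus) for ZNF43. Capitals mark 2 motifs, CCAATCAG, which holds the CCAAT box, and CTGTCACTC, both looked for on both strands and chosen after these sequences had been read.
ZNF141: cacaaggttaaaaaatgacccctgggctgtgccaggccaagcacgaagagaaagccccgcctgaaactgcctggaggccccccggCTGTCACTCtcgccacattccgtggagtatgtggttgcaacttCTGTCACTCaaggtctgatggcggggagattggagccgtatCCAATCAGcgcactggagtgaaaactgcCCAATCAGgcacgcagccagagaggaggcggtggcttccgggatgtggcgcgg
ZNF493: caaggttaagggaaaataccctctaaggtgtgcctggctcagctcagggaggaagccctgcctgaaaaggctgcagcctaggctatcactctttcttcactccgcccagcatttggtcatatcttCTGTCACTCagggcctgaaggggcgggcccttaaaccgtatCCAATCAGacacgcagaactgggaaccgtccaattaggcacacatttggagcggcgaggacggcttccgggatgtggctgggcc
ZNF85: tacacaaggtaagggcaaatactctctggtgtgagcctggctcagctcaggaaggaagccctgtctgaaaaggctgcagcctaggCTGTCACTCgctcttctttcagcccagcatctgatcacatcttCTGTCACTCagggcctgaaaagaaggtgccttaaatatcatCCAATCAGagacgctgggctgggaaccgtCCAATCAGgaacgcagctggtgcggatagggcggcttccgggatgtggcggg
ZNF43: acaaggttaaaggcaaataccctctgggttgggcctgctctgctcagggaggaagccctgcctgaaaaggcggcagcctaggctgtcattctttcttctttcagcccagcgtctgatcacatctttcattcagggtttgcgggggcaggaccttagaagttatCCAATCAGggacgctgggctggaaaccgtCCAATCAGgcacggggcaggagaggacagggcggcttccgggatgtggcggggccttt

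ZNF141 and ZNF85 hold both motifs more than once, ZNF493 holds each of them once, and ZNF43 holds CCAATCAG alone. CCAATCAG stood in the same window of 22 of 94 called chromosome 19 zinc finger genes with a sequence (23.4%). It also stood in 18 of the 71 that were not called (25.4%), in 754 of 12952 genes measured here (5.82%) and in 3.81% of 35116 starts in the table. CTGTCACTC stood in 14.9%, 14.1%, 0.911% and 0.618% of the same sets. The motifs were therefore shared by zinc finger genes of chromosome 19 that differed between the lines and by those that were not called. The median number of CpG dinucleotides in these 250 bases was 15.2 for called zinc finger genes, 17.5 for those not called and 18 for all genes measured, a description with no test.

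At the loci for which these lines are known, HL60 is known for additional copies of MYC. MYC read 8.64, 8.48 and 8.27 in HL60 and 8.17, 8.08 and 7.62 in U937. The arrays did not overlap, but the difference was not called (0.51 ± 0.31, adjusted p = 0.276). Of its 10 measured neighbours, 5 on each side, 3 were called, against 23.5% of all genes called and 10.5% called higher in HL60. With so few genes this is a description with no test. All 3 were higher in HL60: TRIB1 (9.27, 9.62 and 9.02 against 5.99, 6.04 and 5.95), the non-coding CCDC26 (1.12 ± 0.34) and ASAP1-IT1 (0.93 ± 0.29). CCDC26 was not called without HL60 array 3 (adjusted p = 0.115) or U937 array 3 (0.0778). ASAP1-IT1 was not called without HL60 array 2 (0.062), HL60 array 3 (0.127) or U937 array 2 (0.122), or as deposited (0.172). TRIB1, a pseudokinase that marks CEBPA for degradation, differed by 3.31 ± 0.23 (adjusted p = 2.34e-08). The cell cycle inhibitor CDKN2A was higher in U937 (-0.90 ± 0.15, adjusted p = 0.000336), at 6.83 ± 0.02 and 7.73 ± 0.11, with 8 of 13 probe sets on that side. None of its 10 measured neighbours was called.

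The same lines were compared after 3 days of PMA, on 6 other arrays of the same fit. With PMA, 2299 genes (14.1%) were called higher in HL60 and 2409 (14.8%) higher in U937. Of the 1702 genes higher in HL60 with DMSO, 948 (55.7%) were called the same way with PMA, 66 the opposite way and 688 were not called. Of the 2127 higher in U937, 1293 (60.8%) were called the same way, 96 the opposite way and 738 were not called. Of genes that differed at least 16-fold with DMSO, 24 of 28 and 13 of 13 were called the same way with PMA.

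The test of the change in line difference between PMA and DMSO called 1861 genes (11.4%). MPO fell furthest from its DMSO difference among the genes fixed by name, to 1.39 ± 0.17 with PMA, with HL60 at 6.76 and U937 at 5.37. SERPINB10 was at 3.66 in HL60 and 3.73 in U937 with PMA, a difference of -0.07 (adjusted p = 0.862). CD14 was at 6.81 and 7.05 (-0.24, adjusted p = 0.541). FLT3 (3.80 ± 0.14), PRAME (5.49 ± 0.14), CYBB (2.87 ± 0.27) and SDCBP (7.50 ± 0.21) were called higher in HL60 with PMA as well. MEIS1 (-3.54 ± 0.14), HOXA9 (-2.96 ± 0.29), CD93 (-5.22 ± 0.19) and NKG7 (-4.65 ± 0.21) were called higher in U937 with PMA as well.

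Some genes were called in opposite directions with DMSO and with PMA, and those named here were chosen for that pattern. The calcium-binding S100A8, a protein of neutrophils and monocytes, was at 10.41 ± 0.53 in HL60 and 7.47 ± 1.26 in U937 with DMSO (2.94 ± 0.57, adjusted p = 0.00102). With PMA it was higher in U937 (-3.99 ± 0.57). The bacterial lipoprotein receptor TLR2 went from 1.86 ± 0.22 to -1.99 ± 0.22, and the formyl peptide receptor FPR1 from 1.36 ± 0.19 to -1.35 ± 0.19. The GTPase MRAS (-2.72 ± 0.33 to 1.84 ± 0.33), the signalling adaptor EPS8 (-1.65 ± 0.22 to 1.84 ± 0.22) and the ATP receptor P2RX5 (-1.63 ± 0.15 to 1.72 ± 0.15) went the other way. CCL5 was higher in U937 with DMSO and higher in HL60 with PMA (1.36 ± 0.37), and BCL2 was 0.49 lower in HL60 with PMA (-0.49 ± 0.16, adjusted p = 0.0317).

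**Figure D5:**
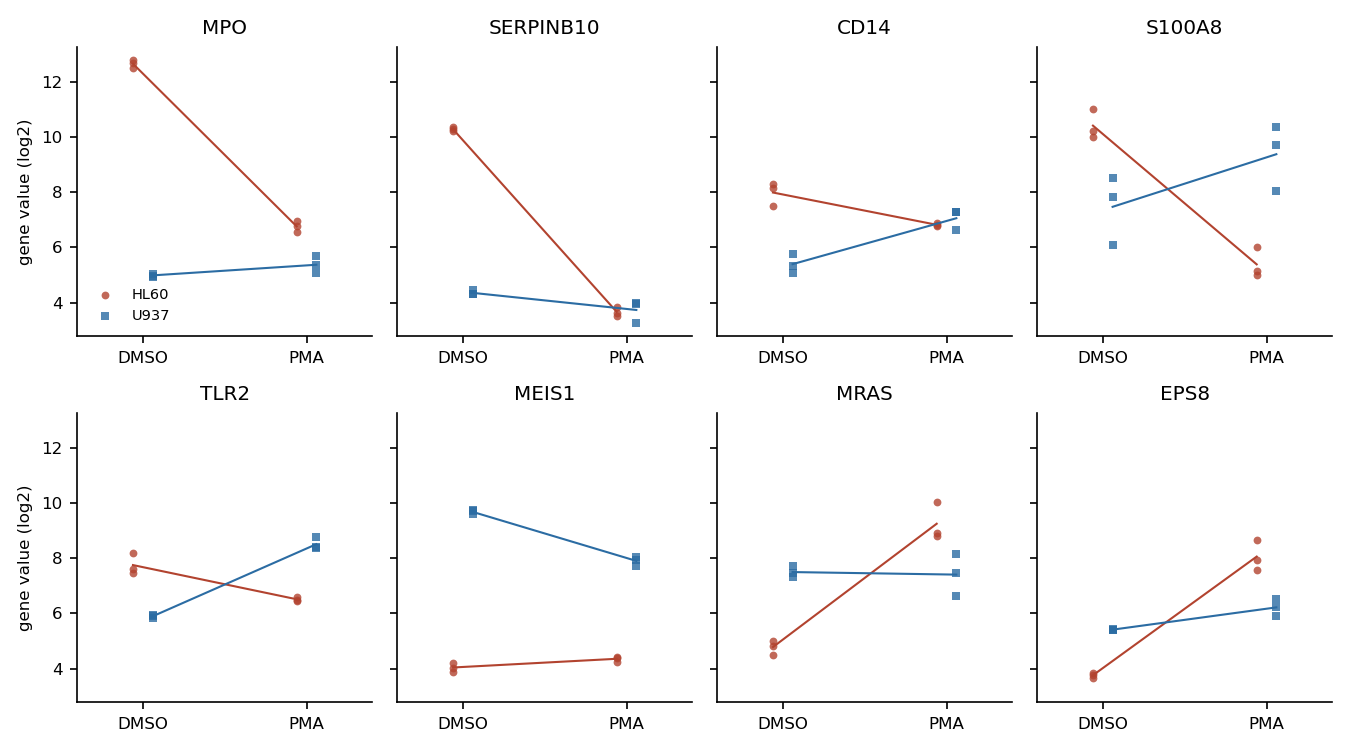
Values of 8 genes (log2, y axis) on each HL60 array (red circles) and U937 array (blue squares), with DMSO at the left and PMA at the right of each panel, lines joining the means of 3 arrays. HL60 and U937 meet with PMA for SERPINB10, stay apart for MEIS1 and change order for S100A8, TLR2, MRAS and EPS8.

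The mean of THP-1 with DMSO was nearer to HL60 than to U937 for 917 (53.9%) of the genes higher in HL60 and for 1221 (57.4%) of the genes higher in U937, against 7655 (47.1%) of all genes. It stood with HL60 for FLT3, PRAME, ZNF141 and MEIS1, and with U937 for MPO, CYBB (5.76 ± 0.67), HOXA9 and HOXA11.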

How the data were processed

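RNA of the 18 samples was hybridised as biotin-labelled cDNA, from 1 µg of total RNA. Per the submitters' processing notes, arrays were processed with Affymetrix Expression Console, and the values the authors deposited are log2 exon-level probe-set values. Background correction, normalization, summary method and genome build are not given in sources read for this work. For arrays, their number limits the precision.

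Quantile normalization was applied over all 18 arrays. Of 287329 probe sets, 261273 had 1 gene symbol in the platform annotation, 9155 several and 16901 none. Of 16941 symbols, 14546 were current in RefSeq (GRCh38.p14, for names, chromosome and gene order), 2276 were updated and 119 kept. Log2 values of a gene's single-symbol probe sets were averaged where it had at least 3, which gave 16260 genes. The 6 group means were fitted with limma 3.58.1 in R 4.3.3, with files read by the data.table package (version 1.17.8), with 12 residual and 15.7 total degrees of freedom and a median SE of 0.18. Two-sided p-values of limma's moderated test were adjusted by Benjamini-Hochberg over all genes, and an adjusted p under 0.05 was called. The script was tested on simulated data.

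The comparison, its gene lists and the named genes were chosen with earlier results of these data known. Named were the 15 largest differences per direction whose arrays did not overlap, up to 4 genes per list, a fixed set of leukaemia and lineage genes, cell type markers, genes in runs of at least 5, neighbours of MYC and CDKN2A, and the 5 largest per direction called oppositely with PMA. Genes with under 3 such probe sets were not analysed here. The main fit has no block for the replicate number. Alternatives changed the normalization, gene summary, filters, arrays, block and threshold.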

Additional observations from a re-analysis of the deposited data

Results flagged for a closer look

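Of 26 genes fixed by name, 10 had a line difference that changed with PMA, as did 11.4% of all genes, and so did the 10 genes named for being called in opposite directions. The values are the line difference (HL60 minus U937) with PMA minus that with DMSO, in log2 units, tested in limma's fit of all 18 arrays and adjusted over all genes. The 10 genes called in opposite directions were chosen for that pattern, so their values are a description.

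The line difference moved toward U937 with PMA for S100A8 (-6.93, adjusted p = 2.25e-05), MPO (-6.28, adjusted p = 1.45e-10), TLR2 (-3.85, adjusted p = 5.81e-07) and S100A12 (-3.82, adjusted p = 0.000641). It moved the same way for ANKRD22 (-3.70, adjusted p = 1.37e-06), CD14 (-2.83, adjusted p = 2.86e-05), FPR1 (-2.71, adjusted p = 5.24e-06), LYZ (-2.16, adjusted p = 0.0248) and MLLT10 (-1.85, adjusted p = 0.000869). A smaller movement toward U937 was seen for CD74 (-1.55, adjusted p = 0.0486), ELANE (-1.20, adjusted p = 0.0397) and GATA2 (-0.83, adjusted p = 0.0245).

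The line difference moved toward HL60 with PMA for MRAS (4.56, adjusted p = 6.46e-06), ARHGAP5 (3.93, adjusted p = 7.59e-07), EPS8 (3.49, adjusted p = 1.52e-06), P2RX5 (3.35, adjusted p = 4.21e-08) and CTSV (3.19, adjusted p = 0.00216), which were higher in U937 with DMSO and higher in HL60 with PMA. For MEIS1 (2.09, adjusted p = 2.97e-06), HOXA10 (0.93, adjusted p = 0.0103) and PRAME (0.67, adjusted p = 0.0412) it moved toward HL60 without a change of side. The DMSO call of CTSV (-1.45, adjusted p = 0.0217) was lost without HL60 array 2 or 3 or U937 array 1 or 2 (adjusted p from 0.0594 to 0.106). That of S100A12 (1.59, adjusted p = 0.0151) was lost without HL60 array 1 (adjusted p = 0.0669) or U937 array 3 (0.0699).

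Leaving out 1 DMSO array ended some of these calls. ELANE lost it without HL60 array 2 (adjusted p = 0.0998), HL60 array 3 (0.0679), U937 array 1 (0.107) or U937 array 2 (0.101). PRAME lost it without HL60 array 2 (0.092), HL60 array 3 (0.0974) or any 1 U937 array (0.0544, 0.106 and 0.0688). CD74 lost it without HL60 array 3 (0.0929), U937 array 2 (0.0764) or U937 array 3 (0.122). GATA2 lost it without HL60 array 2 (0.0688), U937 array 1 (0.0547) or U937 array 2 (0.0715), and LYZ without HL60 array 3 (0.0529).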

How the results depend on the processing

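Of 289 named genes called, 191 remained called in the same direction under every alternative in which they could be fitted. On the values as deposited, 628 genes were called higher in HL60, of which 405 also with PMA, and 98 genes were called in opposite directions. Requiring at least 1 log2 unit left 1537 called genes with DMSO (621 higher in HL60 and 916 in U937), 2089 with PMA, 352 and 461 called the same way in both, and 37 in opposite directions. Leaving out both U937 arrays numbered 2 gave 3761 called genes with PMA, 96 in opposite directions and 1234 with a changed line difference. With the median of a gene's probe sets, the change in line difference of HOXA10 turned from 0.93 to -0.024 (adjusted p = 0.984). The cause was not tested.

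Leaving out each DMSO array in turn gave 2965 to 3690 called genes with DMSO, 1280 to 1569 higher in HL60, 1685 to 2121 higher in U937 and 4504 to 4733 with PMA. Of these, 764 to 881 and 1066 to 1264 were called the same way with PMA, 117 to 146 in opposite directions, and 1483 to 1713 had a changed line difference. The fit with the replicate number as a block called 4875 genes, 2071 higher in HL60 and 2804 higher in U937. The labels do not say what the numbers share. Deviations of same-numbered HL60 and U937 arrays from their group means correlated at 0.66, -0.40 and 0.58, and HL60 array 2 correlated best with U937 array 3 (0.48). Over the whole series the median was 0.47 for 45 same-numbered pairs of arrays and -0.39 for 90 others, a hint of pairing from the data and not from the design. The other alternatives (centring, filters, only the 6 arrays, trend and robust moderation) kept these counts within 1.5 times. Genes low in both lines, 4282 of 16260, have little signal over background.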
